A study of Mus musculus with 6 samples.

Results

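Transcripts of enteroendocrine cells were followed in RNA from sorted Paneth cells (PCs), the granule-rich secretory cells of the small intestinal crypt base. The set comprised 10 genes taken by name and matched to the count table by Ensembl identifier, out of 55414 genes in that table. They were the granin genes Chga and Chgb, the transcription factor gene Neurod1, the serotonin synthesis gene Tph1, and the hormone genes Sct, Gip, Cck, Gcg, Pyy and Nts. PCs had been purified from the small intestine of C57BL/6J mice 15 h after injection of PBS or TNF. Each treatment had 3 libraries, labelled as replicates 1 to 3 and taken here as 1 mouse each. All 6 mice were labelled IFNAR1 KO, so the PBS controls lacked the type I interferon receptor subunit as well, and no wild-type PCs were available for comparison. The labels gave neither the sex and age of the mice nor the markers used for the sort. The design asked how TNF changes the PC transcriptome, and the enteroendocrine genes additionally bear on which other cells were present in the sorted populations.

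Enteroendocrine cells are rare hormone-producing cells of the gut epithelium that arise, like PCs, goblet cells and tuft cells, from progenitors of the secretory lineage. They store peptide hormones in dense-core granules together with granins, acidic proteins that help to build these granules, and release them when nutrients reach the gut lumen. Different enteroendocrine cells produce different hormones. Gip, Cck and Sct are typical of the proximal small intestine, whereas Gcg, Pyy and Nts are typical of the distal part.

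Upstream sequences were inspected first, since the 2 granin genes had the most similar levels over the libraries of all members and several hormone genes did not follow them. The RefSeq promoter table (build GRCm38.p6) held a window for all 10 members, 12 windows in total, and the 250 bases before the start of each gene were searched on both strands. The letters TGACGT, the core of the element bound by CREB family factors, occurred in 2 members, Chga and Chgb, and in 6.47% of all 32851 windows. In Chga they began 44 bases before the start. In Chgb they began 72 bases before the start and formed the palindrome TGACGTCA, so that both strands matched at overlapping positions. Both granin promoters are shown because they carry this shared element, in capitals, and are written 5′ to 3′ on the strand of the gene. Chga lies at chr12:102554691-102554940 on the plus strand and Chgb at chr2:132781392-132781641 on the plus strand.
Chga: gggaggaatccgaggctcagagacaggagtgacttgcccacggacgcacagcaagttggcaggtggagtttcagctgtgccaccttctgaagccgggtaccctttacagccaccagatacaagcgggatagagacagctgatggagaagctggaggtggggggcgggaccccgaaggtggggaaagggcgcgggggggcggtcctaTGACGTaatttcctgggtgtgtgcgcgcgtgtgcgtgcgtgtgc
Chgb: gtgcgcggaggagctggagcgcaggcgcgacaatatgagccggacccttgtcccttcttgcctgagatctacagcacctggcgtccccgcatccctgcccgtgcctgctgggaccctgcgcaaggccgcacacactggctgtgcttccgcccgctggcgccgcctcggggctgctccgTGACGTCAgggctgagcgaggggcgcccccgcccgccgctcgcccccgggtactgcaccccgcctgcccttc

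The letters CAGATG, an E-box variant of the kind bound by NeuroD1, occurred in 3 members, Gcg, Cck and Sct, and in 14.4% of all windows. This motif did not overlap with TGACGT in any member. The 3 hormone promoters are shown with CAGATG in capitals because NeuroD1 is itself encoded by a member and is known for its role in hormone gene transcription. Gcg lies at chr2:62483654-62483903, Cck at chr9:121495695-121495944 and Sct at chr7:141279134-141279383, all on the minus strand. The motif began 139 and 83 bases before the start of Gcg, 30 bases before that of Cck and 242 bases before that of Sct. The letters TATAAA occurred in 2 members, Gcg and Sct, and in 12.4% of all windows, and are not marked. A match describes the letters in the window and was not tested as a binding site. The relation of these letters to the levels of the members was not tested either.
Gcg: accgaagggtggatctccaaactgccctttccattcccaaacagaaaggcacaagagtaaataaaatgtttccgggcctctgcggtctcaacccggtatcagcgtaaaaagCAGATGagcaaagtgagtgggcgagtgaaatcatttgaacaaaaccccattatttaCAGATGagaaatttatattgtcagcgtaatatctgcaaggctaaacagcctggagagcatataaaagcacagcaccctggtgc
Cck: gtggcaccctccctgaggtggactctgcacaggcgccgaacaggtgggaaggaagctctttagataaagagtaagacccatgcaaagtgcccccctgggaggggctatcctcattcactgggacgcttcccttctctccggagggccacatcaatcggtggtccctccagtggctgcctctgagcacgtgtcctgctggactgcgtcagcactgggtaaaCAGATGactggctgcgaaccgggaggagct
Sct: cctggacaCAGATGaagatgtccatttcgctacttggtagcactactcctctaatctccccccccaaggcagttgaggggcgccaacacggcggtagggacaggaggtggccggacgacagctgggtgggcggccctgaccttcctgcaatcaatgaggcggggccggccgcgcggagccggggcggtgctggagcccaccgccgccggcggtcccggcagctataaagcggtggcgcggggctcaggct

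The libraries held between 12747484 and 17039511 counts. Levels are given as counts per 1000000 (CPM) on library sizes scaled by trimmed mean of M-values (TMM), so that 3 counts, the limit taken for a count of 0, correspond to 0.147 to 0.255 CPM. The 9 PC markers, among them Lyz1 and Mmp7, were present in every library and summed to between 177488 and 341526 CPM. Most of this sum was Lyz1, at 134153 to 226165 CPM. In the PBS libraries the targeted gene Ifnar1 had 5.19, 8.88 and 9.55 CPM, and in the TNF libraries 5.18, 7.78 and 12.72 CPM, a count over all exons that does not check the knockout. TNF replicate 1 stood apart from its group. Across the 13026 tested genes its log2 CPM correlated at 0.884 and 0.883 with TNF replicates 2 and 3, and at 0.937 to 0.945 with the PBS libraries, as a description over genes. Fits without TNF replicate 1 leave out a library singled out in these same data, so their adjusted p-values are descriptive. That fit called 1980 genes (14.5%), whereas leaving out any other single library called 0. Of the 9 PC markers it called 2 higher, Nupr1 and Pla2g2a, where 9.1% of all genes were. It called 2 lower, Clps and Habp2, where 5.4% of all genes were. PBS replicate 3 and TNF replicate 3 differed from the other libraries in sex-linked transcripts, with 62.2 and 53.9 CPM summed over Ddx3y, Uty, Kdm5d and Eif2s3y against at most 0.170 CPM elsewhere. Xist, the RNA of the inactive X chromosome, was counted at 9.40 CPM in the former and 192 CPM in the latter, against 355 to 1177 CPM in the other libraries. TNF replicate 3 thus held Y-linked transcripts together with Xist at 192 CPM, and whether each library came from 1 mouse was not tested.

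Together, the 10 members made up only a small part of each library. They summed to 52.4, 74.7 and 187 CPM in the PBS mice 1 to 3, and to 96.0, 38.5 and 122 CPM in the TNF mice 1 to 3. PBS replicate 3 and TNF replicate 3 were thus the highest libraries of their groups, and the groups overlapped. As a share of all counts this was 0.0200% in PBS replicate 3 (95% Wilson interval 0.0192 to 0.0208) and 0.00461% in TNF replicate 2 (0.00430 to 0.00495), the highest and the lowest library. These intervals cover counting error only. The group means were 105 CPM in the PBS mice and 85.6 CPM in the TNF mice, and their difference of -19.2 CPM was smaller than the spread between replicates (SD 59.5 CPM). It changed sign without PBS replicate 3 (22.1 CPM) and without TNF replicate 2 (4.40 CPM). In bulk RNA, fewer enteroendocrine cells and less enteroendocrine RNA per cell cannot be told apart.

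**Figure D1:**
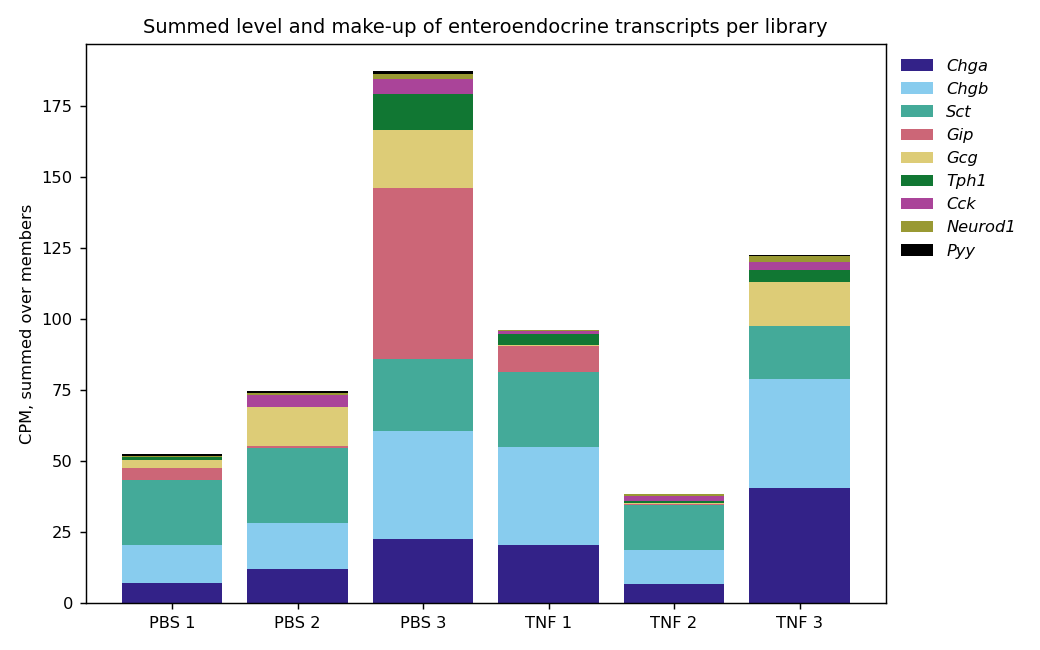
Summed CPM of the enteroendocrine genes (y axis) in each of the 6 libraries (x axis), with 1 coloured segment per gene; Nts is not drawn because it had no counts. The bars range from 38.5 CPM in TNF replicate 2 to 187 CPM in PBS replicate 3, where Gip alone supplied 60.0 CPM.

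The composition of this signal differed between libraries. Sct was the most abundant member by CPM in PBS replicates 1 and 2 and TNF replicate 2, with 43.4%, 35.3% and 40.6% of the member counts. Gip led in PBS replicate 3 with 32.1%, Chgb in TNF replicate 1 with 35.9%, and Chga in TNF replicate 3 with 33.1%. TNF replicate 3, the TNF library with the highest total, had no Gip count at all.

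Per kb of annotated exon, a scale that allows genes to be compared with each other, Sct was the highest with a mean of 34.5 CPM per kb over the 6 libraries, followed by Gip with 15.5, Chgb with 6.22, Gcg with 5.72 and Chga with 2.78. Pyy (0.652), Tph1 (0.611), Cck (0.459) and Neurod1 (0.352) were lower, and Nts had none. The ranges over libraries of neighbours in this order overlapped from Sct to Neurod1, so their exact ranks are not firm. Sct, at 24.0 to 40.5 CPM per kb, did not overlap with Chgb, at 2.99 to 9.34. The lengths were the union of all annotated exons, which lowers the values of genes with many annotated transcripts.

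The granins are the pan-endocrine markers of the set. Chga (ENSMUSG00000021194, GRCm39 chromosome 12, 102520484 to 102531300) encodes chromogranin A. It had 6.85, 11.9 and 22.3 CPM in the PBS libraries 1 to 3, and 20.5, 6.56 and 40.5 CPM in the TNF libraries 1 to 3. The highest library was TNF replicate 3 and the lowest TNF replicate 2, and the groups overlapped. The means were 13.7 ± 7.89 CPM in the PBS mice and 22.5 ± 17.1 CPM in the TNF mice (SD, n = 3), and this difference did not exceed the variation among mice (log2 fold change 0.71, SE 0.60, adjusted p 0.665 by edgeR).

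Chgb (ENSMUSG00000027350, chromosome 2, 132622464 to 132637904) encodes chromogranin B. Its levels were 13.6, 16.0 and 38.1 CPM in the PBS mice and 34.5, 12.2 and 38.2 CPM in the TNF mice. Replicate 3 was again the highest in both groups and TNF replicate 2 the lowest of all. The difference was within the error (log2 fold change 0.32, SE 0.48, adjusted p 0.820 by edgeR). Its exons overlap those of Gm74864 on the opposite strand, and no source used here says whether strand was used in counting. The profiles of Chga and Chgb were the closest pair among the 8 tested members, with a root mean square difference of 0.36 in centred log2 CPM over the 6 libraries.

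Neurod1 (ENSMUSG00000034701, chromosome 2, 79282865 to 79287294) encodes a basic helix-loop-helix factor of endocrine differentiation. It was covered by 90 counts in all, at 0.216, 0.868 and 1.84 CPM in the PBS mice and 0.425, 0.734 and 2.34 CPM in the TNF mice. It too was highest in replicate 3 of each group, and the groups overlapped (log2 fold change 0.25, SE 0.93, edgeR adjusted p 0.933). Of the other members, Chga had the profile nearest to it (root mean square difference 0.71). Neurod1 exons overlap those of Cerkl on the same strand and Gm54165 on the other, and reads in the shared parts are uncertain.

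Tph1 (ENSMUSG00000040046, chromosome 7, 46294065 to 46321965) encodes tryptophan hydroxylase 1, the rate-limiting enzyme for serotonin in enterochromaffin cells. It had 1.23, 0 and 12.6 CPM in the PBS mice, where the 0 allows up to 0.200 CPM, and 3.99, 0.587 and 4.51 CPM in the TNF mice. PBS replicate 3 was at least 62.7-fold higher than PBS replicate 2, taking 3 counts for the latter. The group difference was smaller than its error (log2 fold change -0.62, SE 1.30, adjusted p 0.875 by edgeR) and turned to 2.25 without PBS replicate 3 (adjusted p 0.693).

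**Figure D2:**
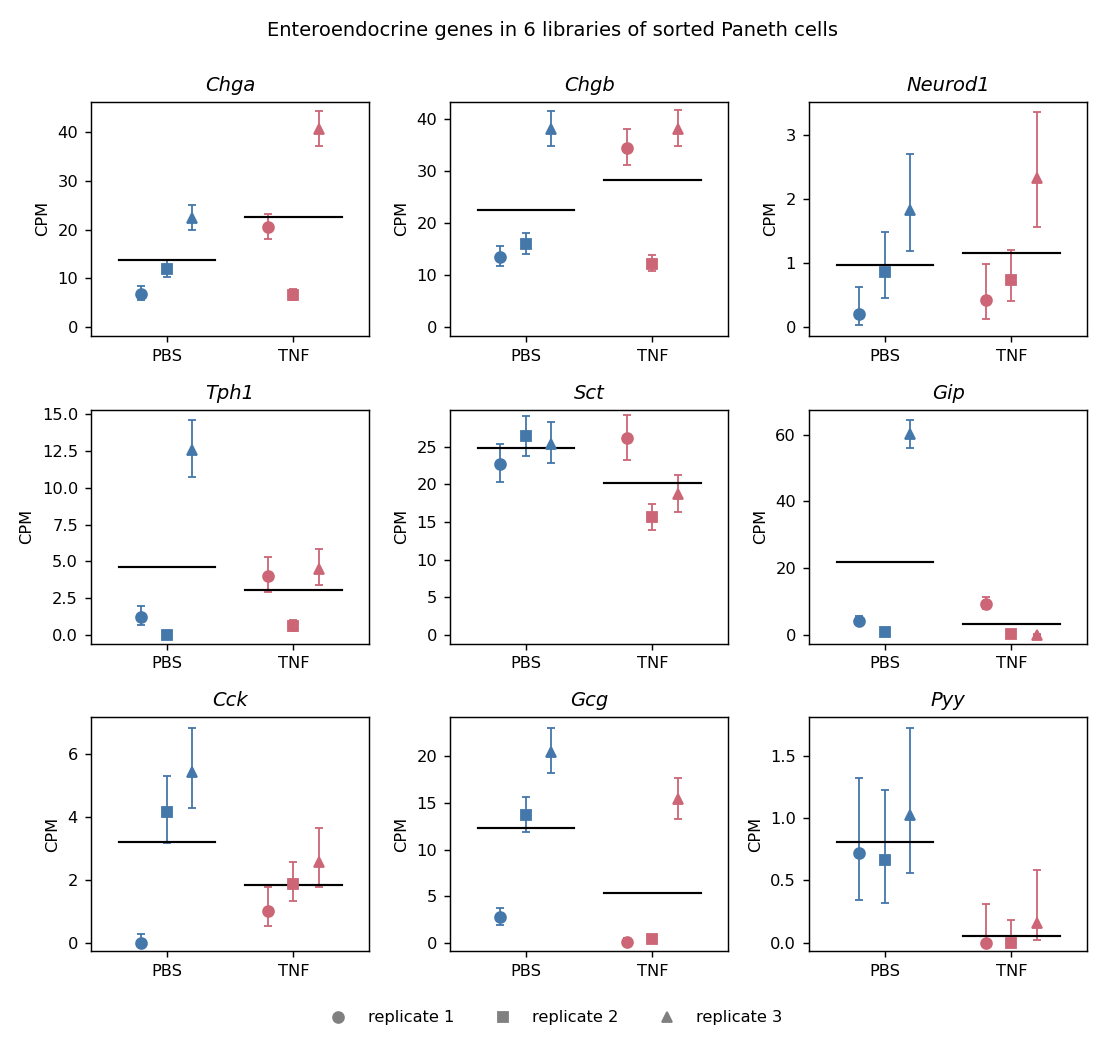
CPM (y axis, linear, own scale per gene) of 9 enteroendocrine genes in the PBS (blue) and TNF (red) libraries, with marker shapes for replicates 1 to 3. Error bars are exact 95% Poisson intervals for counting error, and black lines are group means. In 8 genes the groups overlapped, and in Pyy the 3 TNF libraries, at 0 to 0.161 CPM, lay below the 3 PBS libraries, at 0.667 to 1.03 CPM.

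The proximal hormones differed in how evenly they were distributed. Sct (ENSMUSG00000038580, chromosome 7, 140858243 to 140859052) encodes secretin, which stimulates bicarbonate secretion from the pancreas. It was the most even member, at 22.7, 26.4 and 25.4 CPM in the PBS mice and 26.1, 15.6 and 18.7 CPM in the TNF mice, with a highest to lowest ratio of 1.69 over the 6 libraries. TNF replicates 2 and 3 were below every PBS library, while TNF replicate 1 was within the PBS range. The difference did not pass the 5% threshold with all libraries (log2 fold change -0.31, SE 0.24, edgeR adjusted p 0.638). Without TNF replicate 1 it was -0.52 (SE 0.21, edgeR unadjusted p 0.0322, adjusted p 0.133). In that fit 3883 of 13660 genes had an unadjusted p under 0.05. The coefficient of variation of Sct in PBS was 0.0761, below the median of 0.207 over all tested genes.

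Gip (ENSMUSG00000014351, chromosome 11, 95909127 to 95921657) encodes the incretin glucose-dependent insulinotropic polypeptide, a product of K cells. It was the most uneven member, at 4.33, 1.00 and 60.0 CPM in the PBS mice and 9.43, 0.440 and 0 CPM in the TNF mice. A single library, PBS replicate 3, held 817 of the 1012 Gip counts, and TNF replicate 3 held none, which allows up to 0.242 CPM. Within PBS alone the highest library exceeded the lowest by 60.0-fold. The coefficients of variation were 1.52 in PBS and 1.62 in TNF, against medians of 0.207 and 0.280 over all tested genes. On the log2 scale TNF and PBS differed by -2.77 (SE 1.56, edgeR adjusted p 0.500). Without TNF replicate 1 it was -6.30 (SE 1.70, adjusted p 0.0303), and without PBS replicate 3 it was 0.26 (SE 1.57, adjusted p 0.973), so that both the call and the direction rested on single libraries.

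Cck (ENSMUSG00000032532, chromosome 9, 121315695 to 121324863) encodes cholecystokinin, which triggers gallbladder contraction and pancreatic enzyme release. It had 0, 4.14 and 5.44 CPM in the PBS mice, where the 0 allows up to 0.216 CPM, and 1.02, 1.86 and 2.58 CPM in the TNF mice. PBS replicate 1 lacked Cck although it held 60 Gip and 315 Sct counts. PBS replicates 2 and 3 were above every TNF library and PBS replicate 1 below, and the difference was within the error (log2 fold change -0.81, SE 1.08, edgeR adjusted p 0.796). Cck exons overlap those of Gm68675 and Gm69828 on the opposite strand.

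Of the distal hormones, Gcg (ENSMUSG00000000394, chromosome 2, 62304873 to 62313997) encodes proglucagon, from which L cells produce GLP-1. Its levels were 2.74, 13.7 and 20.5 CPM in the PBS mice and 0.0850, 0.440 and 15.4 CPM in the TNF mice. TNF replicates 1 and 2, with 1 and 9 counts, lay below all PBS libraries, whereas TNF replicate 3, with 191 counts, lay within the PBS range. The fitted log2 difference was -1.23 (SE 1.26, edgeR adjusted p 0.730). Without TNF replicate 3 it was -5.35 (SE 1.01, adjusted p 0.854).

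Pyy (ENSMUSG00000017311, chromosome 11, 101997502 to 101998658) encodes peptide YY, another L cell product that slows gut motility. It was counted 10, 10 and 14 times in PBS, or 0.721, 0.667 and 1.03 CPM, and 0, 0 and 2 times in TNF, or 0, 0 and 0.161 CPM. Every PBS library was above every TNF library. Pyy missed the low-count filter. With all genes kept, its fitted log2 fold change was -3.85 (SE 1.63, edgeR unadjusted p 0.0184, adjusted p 0.274), and with 1 library left out it lay between -6.60 and -3.19 (adjusted p 0.156 to 0.897). These fits depend on the prior count, since 2 TNF libraries had no count. Pooled over libraries, PBS had 34 counts and TNF 2, a ratio of 17.9 with an exact 95% interval of 4.58 to 154 that covers counting error only. Of all genes with at least 10 counts, 7.1% were likewise lower in every TNF library than in any PBS library, and 8.27% were higher. TNF replicate 3, with the most Gcg of the TNF libraries, was the 1 TNF library with Pyy counts.

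Nts (ENSMUSG00000019890, chromosome 10, 102317614 to 102326396), the neurotensin gene, had 0 counts in all 6 libraries. At these depths this allows up to 0.147 to 0.255 CPM per library.

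Of the 10 members, 8 passed the low-count filter and were tested, and 0 passed an adjusted p of 0.05 with edgeR. Over all 13026 tested genes the percentage called was 0. Likewise, 0 of the 8 members had an unadjusted p under 0.05, where 8.25% of all genes were higher and 4% lower in TNF. Without the low-count filter, 2 members passed, Gip and Gcg, both lower, where 2.94% of all genes were called, 2.1% higher and 0.849% lower. DESeq2 called 0 members and 2.06% of all genes, 1.75% higher and 0.307% lower. With limma-voom 0 members and 0 genes passed. Of the 8, 3 had a positive and 5 a negative log2 fold change, with a median of -0.46 beside -0.000587 over all tested genes. None of the 8 had groups that did not overlap, whereas 9.07% of tested genes were higher and 7.82% lower in every TNF library than in any PBS library. Without TNF replicate 1, 1 of 9 tested members passed, Gip, and it was lower, where 5.4% of all genes were called lower and 9.1% higher.

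**Figure D3:**
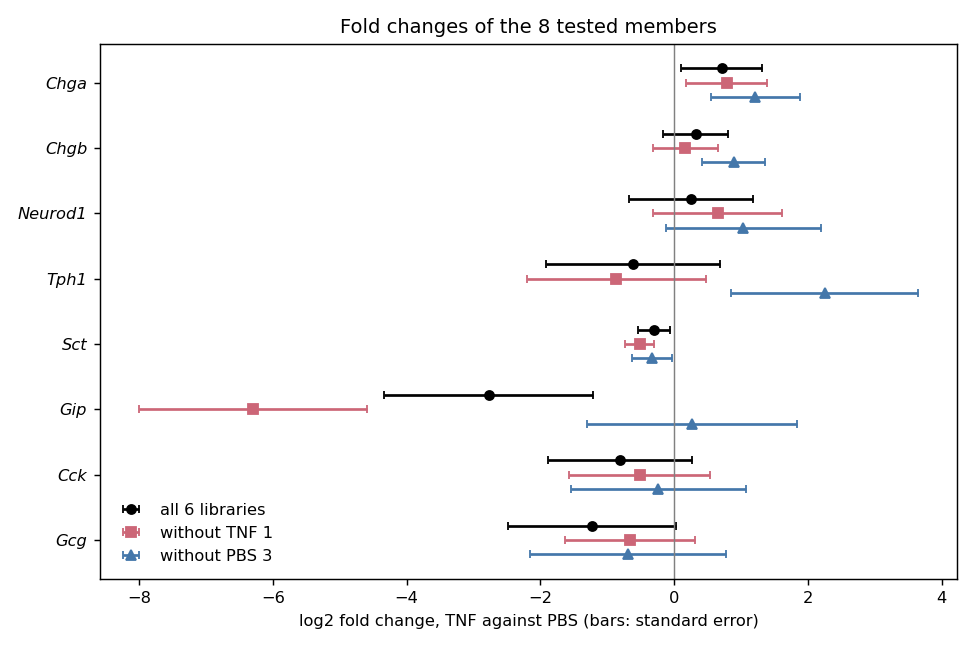
Log2 fold change of TNF against PBS (x axis) for the 8 tested enteroendocrine genes (y axis), with standard errors as bars, fitted by edgeR with all 6 libraries (black), without TNF replicate 1 (red) and without PBS replicate 3 (blue). Gip moved from -2.77 to -6.30 and 0.26 and Tph1 from -0.62 to 2.25 without PBS replicate 3, while Sct stayed between -0.52 and -0.31.

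The members did not follow a common course over the libraries. After centring each gene on its mean log2 CPM, the average profile of the 8 tested members was -0.83, -0.24 and 1.79 in the PBS libraries and -0.10, -1.05 and 0.43 in the TNF libraries, in the order of the replicates. Gip and Gcg were the farthest pair, with a root mean square difference of 3.88. TNF replicate 3 combined the highest Chga with Gcg and without Gip, and TNF replicate 1 combined Gip and Tph1 with a single Gcg count. Among 9760 other genes that averaged 2 or more in log2 CPM, the profile closest to the mean of the members was that of Cpe, which encodes the carboxypeptidase that trims prohormones (root mean square difference 0.45). Next were Rims2 (0.52), a scaffold gene of the exocytic active zone, Mir6236 (0.53), Zswim9 (0.57), Prorsd1 (0.58), Taf1b (0.58), Cplx2 (0.58), the gene of the SNARE regulator complexin 2, and Ap1s2 (0.59), which encodes a subunit of a clathrin adaptor. Most of the other enteroendocrine genes that reached an average log2 CPM of 2 were far from this profile. Those below that average, among them Scg2, Neurog3 and Scg5, were not ranked. Rfx3 ranked 82 and Cacna1a 231, while Pcsk1 (1971), Ptprn2 (6510), Slc18a1 (8419), Ddc (9488), Tac1 (9431) and Iapp (9744) ranked much lower. These values describe 6 libraries and were not tested.

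**Figure D4:**
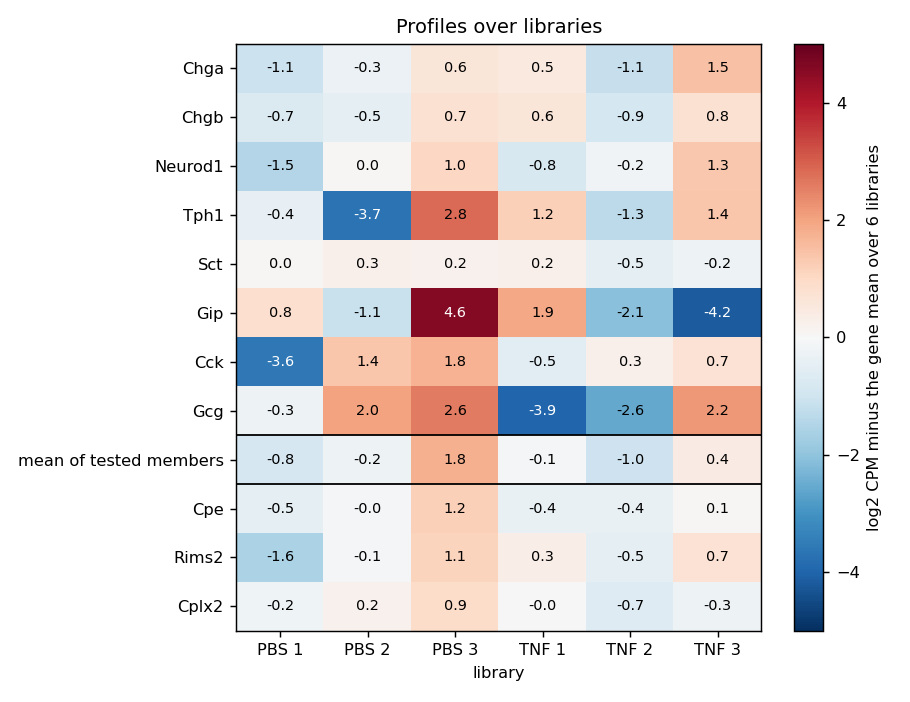
Centred log2 CPM (colour and printed number) in the 6 libraries (columns) for the 8 tested enteroendocrine genes, for their mean, and for 3 of the 8 genes with the nearest profiles. PBS replicate 3 has the highest mean profile (1.79), to which Gip, Tph1 and Gcg contribute most, and Gip and Gcg go opposite ways in TNF replicates 1 and 3.

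Other genes of the enteroendocrine programme were read from 5 lists with 73 genes, of which 40 were tested. With edgeR, 0 of the 40 passed an adjusted p of 0.05, 10 had a positive and 30 a negative log2 fold change, and the median was -0.41. At an unadjusted p under 0.05, 3 were higher and 2 lower, where 8.25% and 4% of all genes were. Without TNF replicate 1, 10 of 46 tested genes passed, beside 14.5% of all genes, 9.1% higher and 5.4% lower. Of these, 3 were higher (Tac1, Iapp and Scg5) and 7 lower (Nkx2-2, Sox4, Mlxipl, Ptprn2, Ddc, Slc18a1 and Slc6a4), all picked for naming with their values known.

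Of 12 other hormone genes 4 were tested, and 6 had no count in any library. Tac1, the precursor gene of substance P in enterochromaffin cells, had 2.09, 1.40 and 4.78 CPM in the PBS mice and 2.97, 9.0 and 21.6 CPM in the TNF mice. TNF replicates 2 and 3 were above all PBS libraries and TNF replicate 1 was not (log2 fold change 2.02, SE 0.70, adjusted p 0.324 by edgeR, and 0.00750 without TNF replicate 1). Iapp, the amylin gene, was at 0, 1.27 and 0.955 CPM in the PBS mice and at 0.0850, 9.83 and 17.3 CPM in the TNF mice (log2 fold change 3.59, SE 1.33, adjusted p 0.336, and 0.00298 without TNF replicate 1). Ghrl, the ghrelin gene of X/A-like cells, had 1.23, 8.14 and 2.42 CPM in the PBS mice and 4.59, 0 and 14.3 CPM in the TNF mice, with the highest and the lowest library both in the TNF group (adjusted p 0.856).

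The transcription factor list had 10 tested genes of 19, with 2 positive and 8 negative fold changes and a median of -0.52. Its 3 most abundant members are factors of broader epithelial expression. Sox4 had 47.5 ± 7.36 CPM in the PBS mice and 32.8 ± 19.5 CPM in the TNF mice (edgeR adjusted p 0.579). Foxa1 had 33.1 ± 8.67 and 45.2 ± 14.1 CPM (adjusted p 0.552). Foxa2 had 14.8 ± 2.07 and 12.1 ± 3.41 CPM (adjusted p 0.689).

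Among 14 genes of prohormone processing and granule cargo, 7 were tested, 1 with a positive and 6 with a negative fold change. Ptprn2, which encodes a membrane protein of dense-core granules, was the most abundant at 151, 91.4 and 93.2 CPM in the PBS mice and 73.0, 45.1 and 51.1 CPM in the TNF mice. All TNF libraries lay below all PBS libraries (log2 fold change -0.99, SE 0.28, adjusted p 0.278 by edgeR, and 0.0104 without TNF replicate 1). Of all tested genes, 7.82% were likewise lower without overlap, and 5.4% were called lower without TNF replicate 1. Pcsk1, the prohormone convertase gene, had 21.8 ± 4.36 CPM in the PBS mice and 19.0 ± 8.32 CPM in the TNF mice (adjusted p 0.832), and Pam, whose product amidates peptide hormones, had 15.8 ± 2.96 and 15.4 ± 0.981 CPM (adjusted p 0.963). The groups overlapped for both genes.

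Of 18 genes of amine handling and exocytosis 16 were tested, 3 with a positive and 13 with a negative fold change, and the median was -0.53. Slc18a1, the vesicular monoamine transporter gene, had 36.9 ± 11.2 CPM in the PBS mice and 23.0 ± 9.83 CPM in the TNF mice (edgeR adjusted p 0.448). Syt7, a calcium sensor gene of exocytosis, had 43.4 ± 20.0 and 38.2 ± 17.4 CPM (adjusted p 0.875), and Maoa, a monoamine oxidase gene, 28.4 ± 6.50 and 23.4 ± 10.02 CPM (adjusted p 0.756). Of 10 nutrient receptors and channels 3 were tested. Ffar2 had 11.8 ± 5.31 and 10.1 ± 5.61 CPM, Ffar4 5.53 ± 1.32 and 6.99 ± 3.40 CPM, and Kcnj11 1.35 ± 0.907 and 0.989 ± 0.924 CPM, with adjusted p-values of 0.787 or more.

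Markers of other cells were set beside these levels. The 9 goblet cell markers summed to 4091 to 5312 CPM, and 6 had a negative and 3 a positive fold change. Without TNF replicate 1, 5 of the 9 were called lower, where 5.4% of all genes were. The 10 tuft cell markers summed to 482, 1385 and 1713 CPM in the PBS mice and 608, 1191 and 643 CPM in the TNF mice. Of the tuft cell genes, 9 had a negative fold change, and 0 were called without TNF replicate 1. The tuft cell sum was highest in PBS replicate 3, as was the enteroendocrine sum, whereas in TNF replicate 3 it lay between the other TNF libraries. Enteric neurons also express granins and some of the peptides. Of the neuron and glia markers, Sox10, S100b and Gfap had no count in any library, and the list summed to 4.25 to 13.1 CPM, mostly from Ret. The immune markers summed to 139 to 185 CPM, mostly from Cd74 (76.0 to 97.1 CPM), H2-Ab1 (28.6 to 51.1 CPM), Lyz2 and Ptprc. Ptprc, the pan-leukocyte gene, had 3.90, 25.0 and 33.9 CPM in the PBS mice and 15.8, 22.7 and 8.86 CPM in the TNF mice. It was highest in PBS replicate 3, as was the enteroendocrine sum. Of the TNF libraries, Ptprc was lowest in TNF replicate 3, where the enteroendocrine sum was highest. The T cell genes Cd8a and Cd3e had 0 and 6 counts in all. The enterocyte markers summed to 574, 529 and 584 CPM in the PBS mice and 488, 383 and 275 CPM in the TNF mice. All 7 tested enterocyte genes had a negative fold change with a median of -0.92. In 3 of them the groups did not overlap, where 7.82% of all tested genes were lower without overlap. Without TNF replicate 1, 7 of 10 enterocyte genes were called lower, where 5.4% of all genes were. Of 8 stem cell genes 7 had a negative fold change. Without TNF replicate 1, 4 of the 8 were called lower, among them Olfm4 (log2 fold change -3.09), beside the same 5.4% of all genes. Intestinal region gave no single direction. Gata4, a factor of the proximal small intestine, had 27.9, 21.0 and 21.8 CPM in the PBS mice and 25.6, 6.995 and 5.88 CPM in the TNF mice (edgeR adjusted p 0.501, and 0.000761 without TNF replicate 1). Osr2, a factor of the ileum, had 7.79, 13.5 and 9.63 CPM in the PBS mice and 11.4, 13.1 and 9.26 CPM in the TNF mice (adjusted p 0.887). Onecut2, the most abundant of the proximal genes, had 15.5, 31.2 and 25.2 CPM in the PBS mice. In the TNF mice it had 37.4, 5.28 and 14.9 CPM (edgeR adjusted p 0.849, and 0.0680 without TNF replicate 1). The proximal factor gene Pdx1, with 92 counts in all, had a positive fold change (0.61, edgeR adjusted p 0.812, and 0.23 without TNF replicate 1). The ileal genes Fabp6 (6.13 CPM), Slc10a2 (2.89 CPM) and Slc51b (2.02 CPM) were highest in PBS replicate 1, where Osr2 was lowest. The part of sex, region and other cells in the levels of the enteroendocrine genes was not tested.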

How the data were processed

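RNA-seq libraries of sorted PCs, 3 PBS and 3 TNF, were analysed as labelled. The deposited values were raw counts per Ensembl gene. Per the submitters' processing notes, the authors used FastQC, Trimmomatic 0.39, STAR 2.7.10a and DESeq2 with build mm39. For the counting tool, strand setting and handling of shared reads nothing is given in the sources used here, which leaves overlapping genes uncertain. Of 55414 identifiers 54749 matched GENCODE vM39 (GRCm39), and unmatched ones held 0.0193% of counts.

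All genes were fitted in R 4.3.3 with edgeR 4.0.16 (filterByExpr with minimum count 10 and minimum total 15, TMM, quasi-likelihood test, two-sided, group only, Benjamini-Hochberg adjustment over 13026 genes, 5%). Log2 CPM used a prior count of 2. Alternatives included DESeq2 1.42.0 and limma-voom (limma 3.58.1). The fit was tested on simulated data. The members and lists were chosen with earlier results of these data known. All 10 members are named, the 3 most abundant tested genes of each other enteroendocrine list, and the 8 genes with the nearest profiles. Any further gene was picked for naming with its values known.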

Additional observations from a re-analysis of the deposited data

How the results depend on the processing

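Results were recomputed with RLE size factors, unscaled library sizes, all genes kept, a minimum mean of 1 CPM, DESeq2, limma-voom, the replicate number as a block, and without each library in turn. Of 151 recomputed values, 130 were classed as the same. For a fold change this meant the same direction and side of the threshold, whatever its size. For a number of genes past 5% it meant that the number stayed at 0. For the summed level it meant the same sign and a move of less than 1 SD between replicates. The number of genes past 5% was 0, and became 690 without the filter, 242 with DESeq2, and 0 to 1980 when 1 library was left out, the highest without TNF replicate 1. Members past 5% became 2 without the filter, Gip (-2.80, adjusted p 2.00e-09) and Gcg (-1.28, 0.0477), and 0 to 1 when 1 library was left out. Other enteroendocrine genes past 5% became 4 without the filter (Tac1, Iapp, Scg5 and Ptprn2), 1 with DESeq2 (Scg5), and 0 to 10 when 1 library was left out. The cause of the calls gained without the filter was not tested.

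When 1 library was left out, log2 fold changes ranged from -0.0256 to 1.21 for Chga (negative without TNF replicate 3), 0.05 to 0.89 for Chgb, -0.71 to 1.03 for Neurod1 (negative without PBS replicate 1, at -0.22, or TNF replicate 3), -6.30 to 0.26 for Gip, -5.35 to -0.66 for Gcg, -1.39 to -0.24 for Cck, -0.52 to -0.18 for Sct and -1.20 to 2.25 for Tph1. Those of Pyy stayed negative, at -6.60 to -3.19. The summed difference ranged from -45.4 to 22.1 CPM, beside -19.2 CPM with all libraries, and was -32.8 CPM with unscaled library sizes. With limma-voom, Cck turned to 0.88 and Tph1 to 1.28, and Gcg moved to -3.40 (adjusted p 0.399). The adjusted p of Gip lay between 2.00e-09 and 0.973 and that of Gcg between 0.0477 and 0.925 over these alternatives. Unscaled library sizes moved the median of all genes to -0.11 and turned no member.

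The replicate number is shared by PBS and TNF samples, but same-numbered samples did not deviate together (correlations of -0.01, -0.07 and 0.03) and not every sample correlated best with its own number. With the replicate block, Tph1 turned to 0.80, Gcg moved to -2.84 (adjusted p 0.404) and Cck to -0.05, and the number of genes past 5% was 0. Depth limits Nts, Pyy and Neurod1, which had 0, 36 and 90 counts in all.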

Other observations

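Further genes of endocrine differentiation had too few counts in too many libraries to be tested, or fell outside the rule for naming, and were picked with their values known. Scg2, the gene of another granin, had 0.0721, 0.601 and 2.50 CPM in the PBS mice 1 to 3 and 0.170, 0.245 and 3.54 CPM in the TNF mice 1 to 3, with replicate 3 the highest in each group, as for Chga and Neurod1. Isl1, a LIM homeobox factor of hormone-producing cells, had 0.216, 0.667 and 2.72 CPM in the PBS mice and 0.0850, 0.0489 and 0 CPM in the TNF mice. These TNF values stand for at most 1 count per library. Every TNF library was below every PBS library, as for Pyy and for 7.1% of all genes with at least 10 counts. Isl1 was not tested with all libraries and had an edgeR adjusted p of 0.0723 without TNF replicate 1. Neurog3, the factor that commits progenitors to the endocrine fate, had 3.25, 0.133 and 2.72 CPM in the PBS mice and 1.36, 0 and 0.161 CPM in the TNF mice (log2 fold change -2.06, SE 1.37, adjusted p 0.571). PBS replicate 1, with the highest Neurog3 level, had the lowest Neurod1 level. Scg5, which encodes the chaperone 7B2 of the prohormone convertase PC2, had 0, 0.400 and 1.10 CPM in the PBS mice and 0.765, 6.26 and 7.33 CPM in the TNF mice (log2 fold change 3.25, SE 1.09, adjusted p 0.314). Pcsk2, the PC2 gene, had 16 counts in all, all of them in TNF replicate 3.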
